A study of Mus musculus with 2 samples.

Results

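Collagens, laminins and the proteins that bind them were described as a gene set in 2 single-cell RNA libraries from mouse, both labelled as colon. The set took every feature whose symbol is Col, a number, a and a number, or Lama, Lamb or Lamc and a number. Sparc, Fn1, Tnc, Postn, Dcn, Lum, Bgn, Mgp, Nid1 and Hspg2 were added by name. These are 65 genes of 55357 features. The rule goes by symbol, but it was set with earlier results of these data known, and it names Col14a1 as an example for macrophages. One library is labelled WT and carries the genotype RUNX3 wt, and the other is labelled KO and carries RUNX3 ko. The series text speaks of RUNX3-/- mice and of tumour models, and is concerned with how natural killer (NK) cells enter colorectal tumours. The part of the gene deleted, the tumour model, the strain, age and number of the animals and any cell sort were not found in the labels. With 1 library per genotype there is no replicate check, so no test or p-value is given and every difference is one between these libraries. Each interval is a 95% interval and covers counting error only.

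Collagens are secreted as triple helices. The fibrillar types (I, III, V) build the fibres of the stroma, whereas type IV forms the sheet of the basement membrane, to which laminins, nidogen and the proteoglycan perlecan are bound. In the intestine this sheet lies beneath the epithelium and around vessels and muscle cells, and fibroblasts make most of the fibrillar matrix between them. Macrophages take up and degrade collagen and are also known to secrete fibronectin.

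The WT library held 8800 barcodes and 85367638 unique molecular identifiers (UMIs, one per captured transcript), and the library labelled KO held 6573 barcodes and 62465176 UMIs. After filters 8360 and 5237 cells were kept, with medians of 8291 and 9404 UMIs per cell. The libraries share 17 barcode sequences. The library labelled KO stood apart in 2 ways. All 8800 WT barcodes passed the filter on UMIs, genes and mitochondrial share, against 5513 in the other library. The highest mitochondrial share was 20.6% (WT) and 55.5% (KO). In the library labelled KO 61 barcodes were over the limit of 25%, so most of those left out fell short on UMIs or genes. Runx3, the targeted gene, was found in both libraries, at 255 CPM (252 to 259) in WT and 192 (189 to 196) in the other. CPM is the UMIs of a gene in each 1000000 UMIs of a group. In NK-like cells Runx3 stood at 690 and 852 CPM. Without knowing which part is deleted, these counts do not check the genotype label, and "the library labelled KO" is used throughout.

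Non-immune cells were taken as the clusters in which pan-leukocyte transcripts lay below 20% of the median cluster, with the 65 genes left out of the clustering. They made up 2.78% of WT cells (2.43 to 3.15%) and 3.23% of cells in the library labelled KO (2.77 to 3.74%). They fell into a larger cluster of 228 and 165 cells and a smaller cluster of 4 and 4 cells. The larger cluster was led by Col3a1, Tafa1, Sparc, Zfpm2, Cald1, Cdh13, Dcn, Hmga2, Sox9 and Bgn. It held 9 of 14 fibroblast or mesenchymal markers and 15 of 16 macrophage or monocyte markers in at least 10% of its cells. Sox9, from the list of chondrocyte or osteoblast markers, is among its leading genes, so the cluster was given no cell type name. Of the 8 markers on that list, 2 (Sox9 and Runx2) reached 10% of its cells and 3 had no UMI there. The smaller cluster held all 14 fibroblast or mesenchymal markers by that limit and was led by Tnc, Col1a1, Col1a2, Mgp and Igfbp5. With 8 cells, 1 cell is enough to meet the limit. The smaller cluster also held 14 of 16 macrophage or monocyte, 9 of 11 T and 6 of 10 pericyte or smooth muscle markers. Tagln, a smooth muscle marker, is also among its leading genes, and it too was left unnamed. The tissue label could not be matched to epithelium. Of 11 epithelial markers 0 reached 10% of the larger cluster's cells and 6 had no UMI there, and Krt8 had none in either cluster. Pecam1, an endothelial marker, was found in 4.82% and 7.88% of the larger cluster's cells. A UMI of Xist or of a Y-linked gene was found in 20.2% (WT) and 32.7% (KO) of the larger cluster's cells, in all 8 cells of the smaller cluster, and in 82.3% and 88.7% of macrophage or monocyte-like cells.

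In both libraries the set was concentrated in these few cells. The 65 genes took 1.13% (WT) and 0.963% (KO) of the larger cluster's UMIs, against 6.96% and 7.15% in the smaller cluster. In macrophage or monocyte-like cells they took 0.142% and 0.215%, in T-like cells 0.0632% and 0.108%, in NK-like cells 0.0213% and 0.0259% and in dendritic-like cells 0.0206% and 0.0245%. Non-immune cells therefore held 36.9% and 33.6% of all UMIs of the set with 5.21% and 7.29% of all UMIs. Macrophages held 42.2% and 53.3%, almost all of it a single gene, Fn1. A larger-cluster cell had a median of 19 and 20 of the 65 genes, against 1 and 2 in a macrophage. Of the 65 genes, 38 had at least 20 UMIs in non-immune cells over both libraries and 28 had as many in macrophages. The other 27 had 0 to 19 UMIs in non-immune cells, and 6 of them (Col9a1, Col9a2, Col26a1, Col13a1, Col6a5 and Col6a6) had none. These 27 include the cartilage collagens Col2a1 (5 UMIs), Col9a3 (16), Col10a1 (1), Col11a1 (4) and Col11a2 (9), although Sox9 was found in 94.7% and 97.0% of the larger cluster's cells.

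Several members lie beside each other in the genome (GRCm38). Col4a1 and Col4a2, the main chains of type IV collagen, start head to head on chromosome 8 and share 22 bases. Col4a4 and Col4a3 start head to head 72 bases apart and Col4a6 and Col4a5 1309 bases apart. Col3a1 and Col5a2 end tail to tail 24615 bases apart. RefSeq start-site windows (250 bases before to 50 after the start, GRCm38.p6) were at hand for 46 of the 65 genes, in 52 windows. Their letters are shown for the gene with the most UMIs in non-immune cells (Col3a1, chr1:45311288-45311587, plus strand), for Sparc (chr11:55420031-55420330, minus strand), whose RefSeq start lies 3103 bases inside the GENCODE gene body, and for the head-to-head pair, whose windows share 78 bases (Col4a1, chr8:11312777-11313076, minus strand, and Col4a2, chr8:11312555-11312854, plus strand). Capitals mark matches on either strand to the TATA box (TATAAA), the CCAAT box (CCAAT), the GC box (GGGCGG) and the RUNX core (TGTGGT).
Col3a1: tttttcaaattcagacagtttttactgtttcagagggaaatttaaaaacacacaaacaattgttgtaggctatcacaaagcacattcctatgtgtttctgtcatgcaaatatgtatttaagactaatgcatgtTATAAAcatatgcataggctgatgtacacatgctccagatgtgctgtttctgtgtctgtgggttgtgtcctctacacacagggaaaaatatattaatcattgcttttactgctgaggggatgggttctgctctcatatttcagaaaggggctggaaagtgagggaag
Sparc: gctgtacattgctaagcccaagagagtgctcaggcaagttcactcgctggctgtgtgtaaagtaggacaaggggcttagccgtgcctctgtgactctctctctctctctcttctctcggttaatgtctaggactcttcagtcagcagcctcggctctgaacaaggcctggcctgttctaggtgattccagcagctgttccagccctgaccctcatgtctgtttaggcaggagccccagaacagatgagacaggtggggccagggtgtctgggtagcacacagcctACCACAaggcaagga
Col4a1: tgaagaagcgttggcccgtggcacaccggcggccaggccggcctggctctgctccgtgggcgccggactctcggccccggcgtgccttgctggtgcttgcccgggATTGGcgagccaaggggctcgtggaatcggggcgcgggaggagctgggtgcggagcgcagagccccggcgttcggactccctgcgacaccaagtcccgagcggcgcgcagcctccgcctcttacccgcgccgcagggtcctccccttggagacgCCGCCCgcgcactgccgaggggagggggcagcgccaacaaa
Col4a2: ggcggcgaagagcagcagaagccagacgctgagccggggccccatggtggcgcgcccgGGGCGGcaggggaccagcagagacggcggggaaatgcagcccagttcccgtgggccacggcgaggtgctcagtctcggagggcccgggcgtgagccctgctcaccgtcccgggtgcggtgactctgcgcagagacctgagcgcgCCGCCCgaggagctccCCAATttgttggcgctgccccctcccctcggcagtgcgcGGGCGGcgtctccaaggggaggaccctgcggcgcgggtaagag
The Col3a1 window has a TATA box and 37.7% G or C, whereas the Col4a1 and Col4a2 windows have 74.0% and 73.7% G or C, with CCAAT and GC boxes and no TATA box. Among the 52 windows a GC box was matched in 31 (35.7% of all 32851 windows have one), a CCAAT box in 16 (37.4%), a TATA box in 8 (13.6%) and the RUNX core in 4 (16.8%). The windows with a RUNX core are those of Sparc (at the RefSeq start), Col8a1, Col17a1 and Col18a1. A match describes letters only and is not a binding site.

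Levels in the larger cluster are given first, as CPM in WT and then in the library labelled KO. They were not divided by transcript length, so each gene is read across libraries and cell groups, and an order of genes is one of UMIs only. Among the fibrillar collagens, Col3a1, the sole chain of type III collagen, held the most UMIs. It stood at 4105 (4042 to 4169) and 3573 (3514 to 3632) CPM, was found in 97.4% and 98.2% of cells and held 36.4% and 37.1% of the set's UMIs. Of the type I chains, Col1a2 stood at 317 and 287 CPM and Col1a1 at 163 and 153. Col1a2 was found in 90.4% and 95.2% of cells, Col1a1 in 32.9% and 40.0%. The type V chains, which help to set fibril width, lay close together. Col5a2 was at 135 and 101 CPM, Col5a1 at 123 and 113 and Col5a3 at 122 and 129. Col27a1 was at 20.3 and 16.9 CPM. Col3a1 and Col1a2 were thus found in almost every cell of the cluster, and Col1a1 in a minority.

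**Figure D1:**
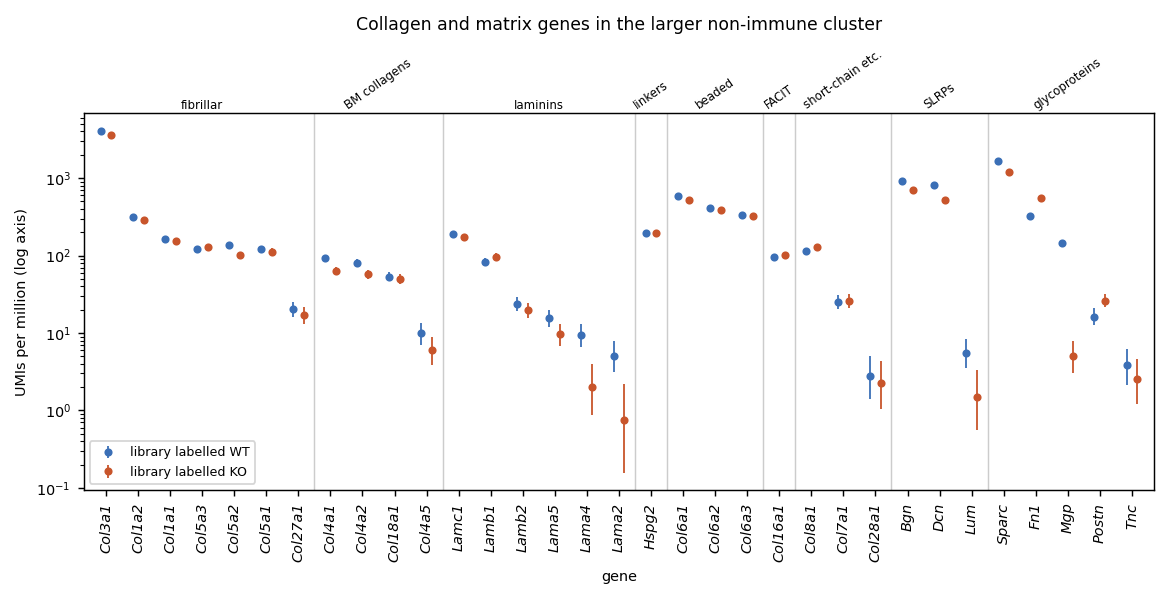
CPM (log axis) of 33 of the 34 genes with at least 20 UMIs in the larger non-immune cluster, by role (BM, basement membrane; FACIT, fibril-associated; SLRPs, small leucine-rich proteoglycans). Points are single libraries (WT blue, library labelled KO orange) and bars are 95% Poisson intervals. Col3a1 stands highest at 4105 and 3573, and Mgp has the widest gap between the libraries, 143 against 5.05.

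Basement membrane genes were found in the same cells. Col4a1 stood at 92.7 (83.5 to 103) and 63.6 (56.0 to 71.9) CPM and Col4a2 at 80.5 (71.9 to 89.9) and 57.3 (50.1 to 65.2). Both were thus lower in the library labelled KO, with ratios of 0.686 (0.582 to 0.807) and 0.711 (0.597 to 0.846). Col18a1, the source of endostatin, was at 53.6 and 50.2 CPM and the X-linked Col4a5 at 9.91 and 6.05. Of the laminins, which bind the sheet to cells, the gamma chain Lamc1 held the most UMIs, at 187 and 173 CPM, followed by the beta chain Lamb1 at 82.6 and 96.6. Lamb2 was at 23.6 and 19.7 CPM and the alpha chain Lama5 at 15.5 and 9.59. The other alpha chains were sparse, Lama4 with 37 and 8 UMIs and Lama2 with 20 and 3. Hspg2, which encodes perlecan, was level between the libraries at 197 and 198 CPM. Nid1, the nidogen that links laminin to type IV collagen, had under 20 UMIs in the larger cluster and is described with the smaller one.

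The remaining roles were led by the chains of type VI collagen, a beaded filament near the cell surface. Col6a1 stood at 579 and 517 CPM, Col6a2 at 413 and 382 and Col6a3 at 334 and 327. Of the fibril-associated collagens only Col16a1 passed 20 UMIs in the larger cluster, at 94.5 and 100 CPM. Among the short-chain, anchoring and transmembrane types, Col8a1 was at 115 and 129 CPM and Col7a1, the anchoring fibril of epithelial junctions, at 25.1 and 26.0. The small leucine-rich proteoglycans coat collagen fibrils. Bgn was at 926 and 708 CPM, Dcn at 824 and 520, and Lum at 5.59 and 1.51. Dcn had a ratio of 0.631 (0.597 to 0.667) and Bgn of 0.764 (0.728 to 0.803). Sparc, a collagen-binding matricellular protein, had the most UMIs after Col3a1, at 1644 CPM in WT and 1208 in the other library. Fn1, which encodes fibronectin, went the other way, at 324 (306 to 342) and 552 (530 to 576) CPM. Its median per cell was 2 and 6 UMIs. The macrophage markers in the same cluster summed to 1838 and 2190 CPM, all 16 of them present, and their part in the Fn1 difference was not tested.

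Mgp, an inhibitor of calcification, had 564 UMIs in the WT part of the larger cluster and 20 in the other library, 143 against 5.05 CPM. This difference came from few cells. Of the 564 UMIs, 534 lay in 2 WT cells that each had at least 10, a limit set after the values were seen, and 1 cell held 521. No cell of the library labelled KO reached 10. Mgp was found in 6.14% and 6.67% of cells. Postn was similarly uneven, with 60 of 104 UMIs of the library labelled KO in 1 cell. By contrast, the 5 cells richest in Col3a1 held 13.6% and 15.5% of its UMIs, and the 5 richest in Sparc 9.72% and 9.29%.

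The smaller cluster carried a much denser and different matrix. Col1a2 stood at 7947 and 8966 CPM, Col1a1 at 7258 and 7328, Col3a1 at 7209 and 6838, Sparc at 6545 and 6838, and Bgn at 5167 and 5180. The type I chains differed more between the clusters than type III did. Of 34 genes compared, those with at least 100 UMIs in non-immune cells or macrophages, 28 were higher in the smaller cluster in both libraries. Tnc, Col12a1 and Lama2 passed that limit only through the smaller cluster, and no such count was made over all genes. In WT, Col1a1 was 44.6 times as high (38.8 to 51.3) and Col1a2 25.1 times (22.1 to 28.4), against 1.76 times for Col3a1 (1.56 to 1.97) and 1.70 times for Dcn (1.29 to 2.21). Fibril-associated and basement zone genes that were nearly missing from the larger cluster were found in these cells. Col15a1, a basement membrane zone collagen, was at 1575 and 885 CPM against 2.54 and 2.27. Col14a1, a fibril-associated collagen, was at 615 and 1074 against 0.762 and 3.53, and Col12a1, of the same family, at 467 and 1158 against 0.254 and 1.26. Lama2, the laminin chain of muscle and fibroblasts, was at 763 and 914 against 5.08 and 0.757. Nid1 had 23 and 39 UMIs there, at 566 and 367 CPM. Col18a1 and Col7a1 had no UMI in the 4 WT cells and stood at 53.6 and 25.1 CPM in the larger cluster. With 40644 UMIs in all, the WT part of the smaller cluster allows up to 90.8 CPM for a gene with none, so a difference for these genes was not detectable at this depth.

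**Figure D2:**
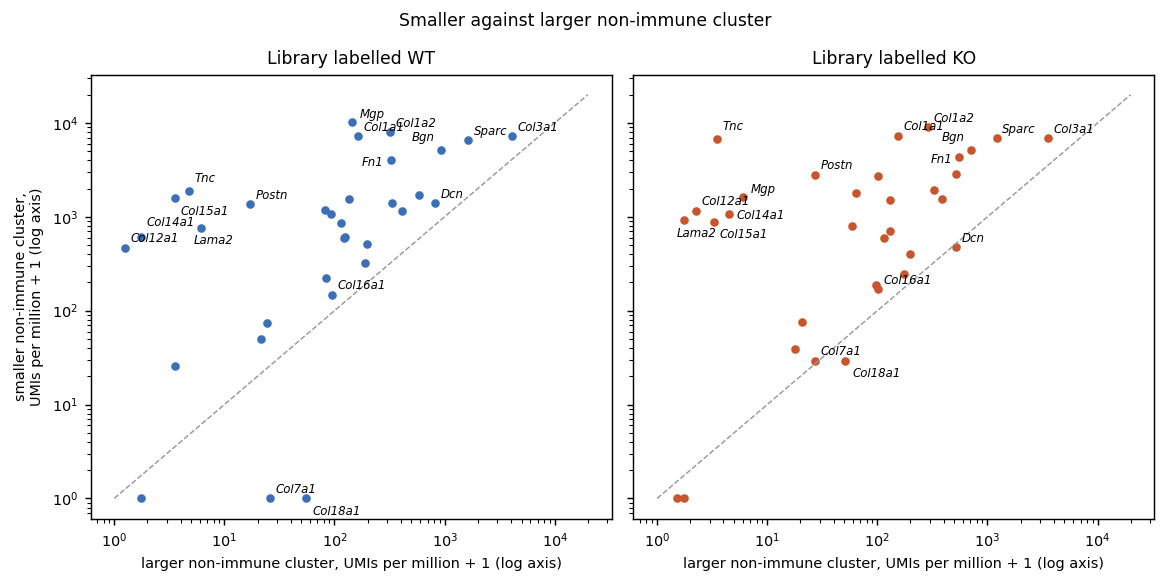
Level of 33 genes in the smaller cluster (4 cells per library) against the larger cluster, CPM plus 1 on log axes, with the line of equal level dashed and 1 panel per library. Most points lie above the line, among the farthest those of Tnc, Col15a1, Col14a1, Col12a1 and Lama2, whereas Col18a1 and Col7a1 lie at 0 in the smaller cluster in WT.

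The 8 cells of the smaller cluster also differed among themselves. Tnc, which encodes tenascin-C, a glycoprotein of remodelling tissue, had 1, 52, 3 and 21 UMIs in the 4 WT cells and 0, 400, 300 and 22 in the other 4. Mgp had 236, 3, 175 and 2 in WT and 63, 27, 6 and 77 in the library labelled KO. The cells with most Mgp in WT were thus those with least Tnc. Col14a1 had 12, 1, 10 and 2 UMIs in WT and 7, 20, 2 and 85 in the other library. Col1a1, by contrast, ran from 33 to 99 UMIs in the WT cells and from 87 to 308 in the deeper cells of the library labelled KO. The cells held 3836 to 18233 UMIs in WT and 13946 to 37266 in the other library.

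The comparison between the libraries asked which matrix genes differ with the RUNX3 label in the cells that make most of them. In both non-immune clusters together, 4 of the 38 genes with at least 20 UMIs were at least 2-fold higher in the library labelled KO, on log2 of CPM plus 5. Over all 12482 genes 0.569% were. Tnc stood at 23.1 and 180 CPM (log2 ratio 2.72), Col12a1 at 5.03 and 31.4 (1.86), Col14a1 at 7.04 and 31.4 (1.60) and Postn at 29.9 and 98.8 (1.57). Mgp, at 246 and 47.4 (-2.26), was the single gene at least 2-fold lower, against 0.152% of all genes. It was at -0.76 without the 5% of cells richest in the set and at -0.83 with cells chosen one by one, short of 2-fold in both. The median log2 ratio was 0.0064 over the 38 genes and -0.05 over all genes, with 19 genes above 0 and 19 below. The set took 1.19% of non-immune UMIs in WT and 1.12% in the other library, a ratio of 0.948.

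The 4 higher values rested on the 8 cells of the smaller cluster. With the larger cluster alone, a comparison added after the values were seen, 0 of 34 genes were at least 2-fold higher (0.398% of all 12314 genes) and 2 were at least 2-fold lower (0.187%), Mgp (-3.88) and Lama4 (-1.04). Tnc was then at 3.81 and 2.52 CPM, with a log2 ratio of -0.23, and Postn at 0.56. Col12a1 and Col14a1 no longer reached 20 UMIs. The smaller cluster held 83.7% of the WT Tnc UMIs of non-immune cells. In the larger cluster 26 of 34 genes lay below 0, with a median of -0.15, against 7378 of all 12314 genes and a median of -0.05. The counting interval of the ratio lay below 1 for 15 of the 34 genes, above 1 for 3 (Fn1, Postn and Lamb1) and spanned 1 for 16. The same count was not made over all genes, and the interval does not allow for UMIs gathered in few cells. In WT the richest cell held 92.4% of the UMIs for Mgp and 68.2% for Lum, both among the 15. Lama4 and Lama2, also among the 15, had 8 and 3 UMIs in the library labelled KO, in 5 and 2 cells. In the library labelled KO the richest cell held 57.7% for Postn. By role, the log2 ratio was below 0 for all 3 small leucine-rich proteoglycans (median -0.66), all 4 basement membrane collagens (-0.44) and all 3 type VI chains (-0.11), and for 6 of 7 laminins (-0.21) and 6 of 7 fibrillar collagens (-0.14). The intervals of Col1a1, Col5a1, Col27a1, Col6a3, Col18a1, Col4a5, Lamc1 and Lamb2 spanned 1. Scaled to the median ratio of genes, added after the values were seen, 24 of 34 genes lay below 0, and 1 type VI chain and 2 laminins above it. Fn1, at 0.76, was the highest. The cells of the larger cluster were deeper in the library labelled KO (median 20715 against 15031.5 UMIs), and the part of depth in these differences was not tested beyond thinning. Thinned to 1000 UMIs per cell, Col3a1 was found in 70.6% (64.2 to 76.4) and 66.7% (58.9 to 73.8) of the larger cluster's cells, Sparc in 71.5% and 64.2%, and Fn1 in 19.3% and 38.2%.

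**Figure D3:**
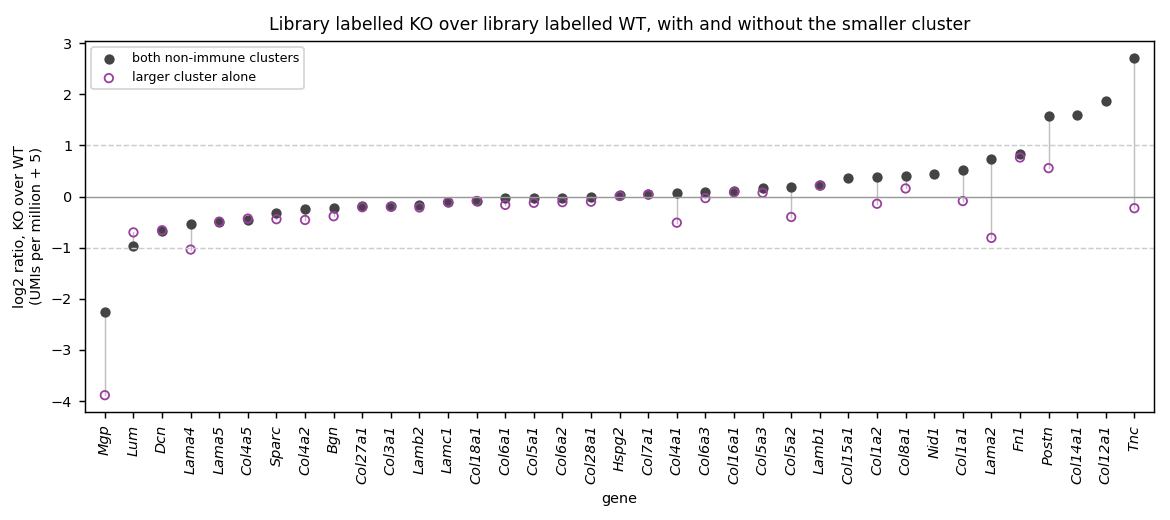
Log2 ratio between the libraries, KO label over WT (CPM plus 5), for 37 of the 38 genes with at least 20 UMIs in non-immune cells. Filled points use both clusters, open circles the larger cluster alone where the gene still has 20 UMIs, and dashed lines mark 2-fold. Tnc falls from 2.72 to -0.23 and Mgp moves from -2.26 to -3.88 when the smaller cluster is left out.

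Genes that act on collagen and other matrix genes were set beside all 12482 genes in non-immune cells. Of all 12482, 0.569% were at least 2-fold higher in the library labelled KO and 0.152% at least 2-fold lower. Of 32 enzymes and chaperones of collagen synthesis and crosslinking, 29 had at least 20 non-immune UMIs, 1 was at least 2-fold higher and 0 lower, with a median of -0.04. Lox, a crosslinking enzyme, stood at 2.01 and 26.0 CPM and was highest (2.15), followed by Loxl2 (0.65) and P3h3 (0.26). Lowest were Plod1, a lysyl hydroxylase (-0.43), Adamts14 (-0.31) and Serpinh1, the collagen chaperone (-0.23). All 8 and 106 Lox UMIs came from the smaller cluster. Of 26 matrix receptors and uptake genes 20 passed, 1 higher and 0 lower (median -0.01). They ran from Mrc1, the mannose receptor (27.4 and 101 CPM, 1.71), Lair1 (0.62) and Itga1 (0.38) down to Itgb5 (-0.35), Sdc2 (-0.35) and Itgb4 (-0.31). Of 33 other matrix genes 28 passed, 3 higher and 1 lower (median 0.06). Ccn2, a matricellular gene, stood at 1.01 and 41.3 CPM with 164 of its 168 UMIs of the library labelled KO in the smaller cluster, and was highest (2.95), then Thbs1 (1.35) and Spp1 (1.11), and lowest were Ogn (-0.58), Prelp (-0.54) and Tnxb (-0.46) among genes with at least 50 UMIs. The gene counted as lower was Sparcl1, which had 32 UMIs in WT and 0 in the other library and is named after its values were seen.

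Mrc1, Thbs1 and Spp1 are also macrophage genes, and Lair1 was found in macrophages too. In macrophage or monocyte-like cells Mrc1 stood at 718 and 747 CPM and Lair1 at 214 and 203. Thbs1 stood there at 676 and 1244 CPM, and Spp1 at 652 and 1115. In the larger cluster Mrc1 was at 27.7 and 91.6 CPM and Lair1 at 15.7 and 27.0. Thbs1 was there at 55.9 and 110 CPM and Spp1 at 139 and 247. In the smaller cluster the macrophage markers summed to 812 and 2750 CPM, with 4 and 14 of the 16 present. How far RNA of macrophages makes up these values and that of Fn1 was not tested.

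Macrophage or monocyte-like cells numbered 3907 (WT) and 3140 (KO), in 9 clusters. The genes Fn1 and Col14a1 stood out in them, the first by level and the second by its difference between the libraries. The rule of the set had already named Col14a1 for macrophages, so it was not found blind. Fn1 stood at 1342 (1330 to 1354) and 2035 (2020 to 2050) CPM, was found in 76.6% and 85.5% of cells, and made up 94.3% and 94.7% of the set's UMIs there. It was thus higher than in the larger non-immune cluster in both libraries. Col14a1 stood at 7.39 (6.55 to 8.31) and 34.1 (32.1 to 36.1) CPM, a ratio of 4.61 (4.04 to 5.27), with a UMI in 5.43% and 20.2% of cells. Thinned to 1000 UMIs, those shares were 0.671% (0.439 to 0.982) and 3.27% (2.67 to 3.97), with 32 and 85 shallower cells left out. The same shares were 0.121% and 0.707% in T-like cells, and 0% of 334 and 104 NK-like cells, which allow up to 1.10% and 3.48%. Median depths before thinning were 8978 and 9886.5 UMIs in macrophages, 5159 and 6380 in T-like and 6016 and 7188 in NK-like cells. Its gene body lies at chr15:55307750-55520803 on the plus strand, over the antisense genes 1700040F17Rik and Gm49257, whose reads are kept apart only if counting used strand.

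Col14a1 was the single gene of 28 with at least 20 macrophage UMIs that was at least 2-fold higher (log2 ratio 1.66), against 0.281% of all 15631 genes, and 0 were at least 2-fold lower, against 0.0704%. Of the 28 genes, 23 lay above 0, with a median of 0.05, against 7439 of all 15631 genes and a median of -0.01. Fn1 followed at 0.60, Col4a1 at 0.27 and Col15a1 at 0.20. Lamc1 was at 35.7 and 32.4 CPM (-0.12), Col15a1 at 6.23 and 7.87, and Col3a1 at 6.68 and 7.60. Col20a1, a fibril-associated collagen with 5 UMIs in non-immune cells, had 89 and 80 in macrophages, at 2.35 and 2.37 CPM, and stood at 2.27 and 2.59 in T-like cells. The 23 genes other than Fn1, Col14a1, Lamc1, Col15a1 and Col3a1 lay between 0.207 and 4.02 CPM, under the 5 CPM added before each ratio. At such levels none of these 23 could reach 2-fold in either direction on that scale. Their ratios, and with them the median, are drawn towards 0. The set as a whole took 0.142% and 0.215% of macrophage UMIs, a ratio of 1.51.

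RNA from other cells can reach any barcode, so these levels were set beside T-like and NK-like cells. Col3a1 stood at 4.61 and 5.17 CPM in T-like cells and at 4.44 in WT NK-like cells, close to its macrophage level. In the NK-like cells labelled KO it reached 42.4, with 35 of 40 UMIs in 1 cell. A gene was described as above this background in macrophages where it exceeded both lymphoid classes and its percent of the non-immune level exceeded that of Col1a1, Col1a2 and Col3a1. In both libraries 11 genes met this by point values, and 7 of them had 20 macrophage UMIs, namely Fn1, Col14a1, Col15a1, Col4a1, Col4a2, Lamb2 and Col7a1. Of these, Col4a2 (31 and 37), Lamb2 (28 and 32) and Col7a1 (18 and 26) had few macrophage UMIs. In NK-like cells they had 2 and 0, 1 and 0, and 0 and 0 UMIs, too few to resolve which level is higher. Fn1 in macrophages was 372% and 313% of the non-immune level, Col14a1 105% and 108% and Col15a1 33.5% and 31.1%. The smaller cluster, with 4 cells per library, held 89.3% and 89.1% of non-immune Col14a1 UMIs and 86.5% and 91.3% of Col15a1 UMIs. Macrophage Col14a1 lay above the larger cluster (0.762 and 3.53 CPM) and below the smaller one (615 and 1074), so the pooled percent describes neither. Col4a1 was 2.42% and 3.71%. Col1a1, Col1a2, Col6a1, Bgn and Dcn lay between 0.0795% and 0.323%. T-like barcodes also held RNA of macrophage markers. These summed to 38.8% and 46.7% of the macrophage level, and their Col14a1 to 52.2% and 43.9%. In NK-like barcodes the corresponding values were 11.7% and 10.5% for the markers and 16.4% and 12.4% for Col14a1.

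**Figure D4:**
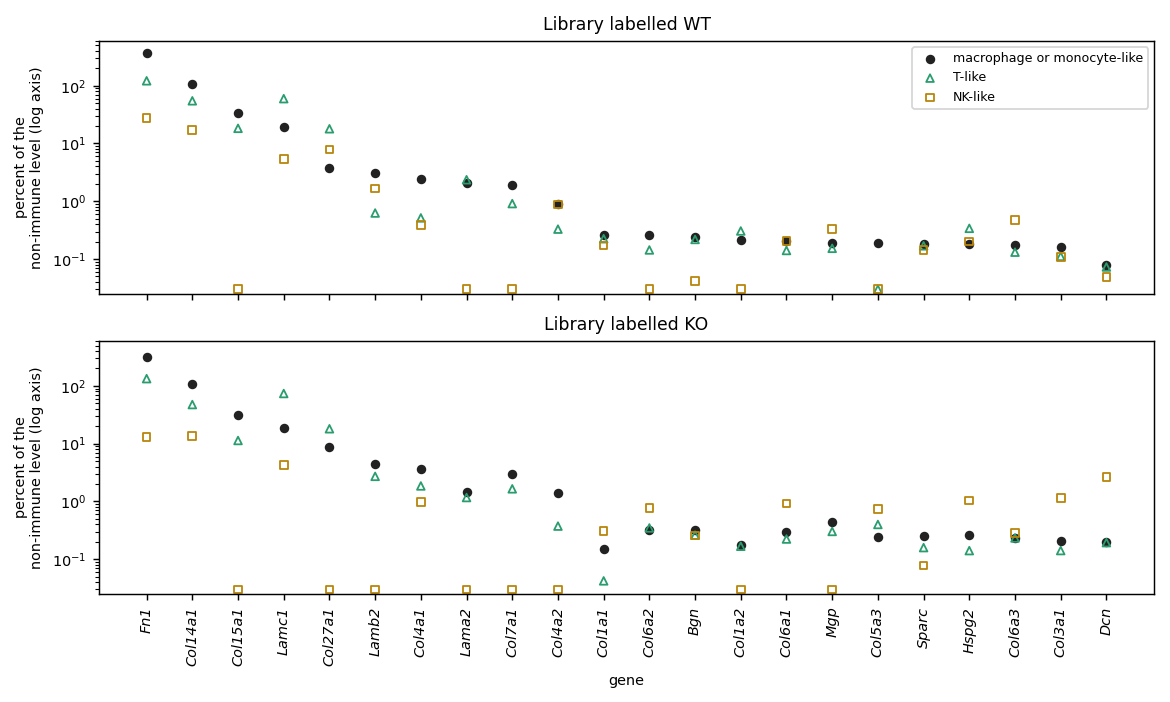
Level in macrophage or monocyte-like, T-like and NK-like cells as a percent of the level in non-immune cells (log axis), for genes with at least 20 UMIs in both macrophages and non-immune cells. Values under 0.03%, zeros included, are drawn at 0.03%. Fn1, Col14a1 and Col15a1 stand highest on the left in macrophages, and Col1a1, Col1a2 and Col3a1 lie near 0.2%. The non-immune levels of Col14a1 and Col15a1 come mostly from the few cells of the smaller cluster.

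Col14a1 was not evenly spread over the macrophage clusters. It was highest in the cluster led by Fcrls, Cbr2, Stab1, Ccl12 and Pf4, genes known from resident macrophages, at 25.2 (19.2 to 32.5) and 79.3 (72.5 to 86.5) CPM. That cluster took 3.09% of WT cells and 12.2% of cells in the library labelled KO, and held 21.1% and 43.5% of macrophage Col14a1 UMIs. The next in WT were the cluster led by Ccl8 and Cxcl9, at 10.1 (7.86 to 12.7) CPM, and the proliferating cluster (Top2a, Mki67), at 7.74 (5.80 to 10.1), with intervals that overlap. In the library labelled KO the proliferating cluster came second, on 285 UMIs with an interval of 44.4 to 56.2 CPM and a log2 ratio of 2.11, and the Ccl8 and Cxcl9 cluster stood at 31.0 (25.3 to 37.6). The clusters with the monocyte gene Ly6c2 among their leading genes were low, at 1.39 and 3.84 and at 2.22 and 2.31. In all 9 clusters the value was higher in the library labelled KO, although in 2 of them, led by Plac8 and by Cxcl3, it rested on 5 and 4 UMIs. With the 9 clusters given equal weight, an alternative added later, the log2 ratio was 1.39 in place of 1.66. Without the macrophages that held a UMI of Col1a1, Col1a2 or Col3a1 it was 1.58. In T-like cells Col14a1 was at 3.86 and 14.9 CPM.

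Fn1 had another order over the same clusters. In WT it ran from 529 CPM in the Ccl8 and Cxcl9 cluster to 2016 in the cluster led by Cxcl1, Il1a and Arg1 and 2386 in the small cluster led by Cxcl3 and Inhba. In the library labelled KO the same clusters stood at 813, 2740 and 2495. It was higher in the library labelled KO in 9 of 9 clusters, by the least in the Cxcl3 cluster (0.06). That cluster held 12 WT cells and 189 cells of the other library. Fn1 overlaps Apol7d on the opposite strand.

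**Figure D5:**
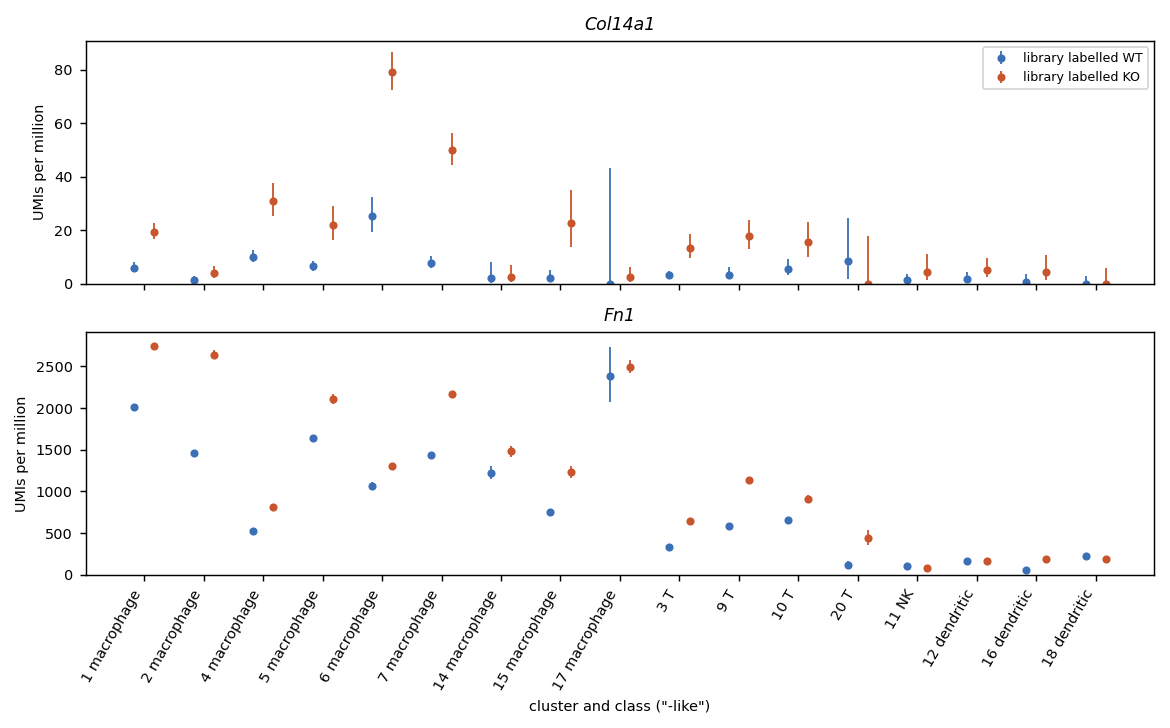
Col14a1 (top) and Fn1 (bottom) in CPM in each macrophage, T-like, NK-like and dendritic-like cluster, by library (WT blue, library labelled KO orange), with 95% Poisson intervals. Col14a1 peaks in cluster 6 at 25.2 and 79.3, whereas Fn1 stands highest in clusters 17 and 1 in WT (2386 and 2016) and in clusters 1 and 2 in the library labelled KO (2740 and 2638).

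A few genes of the set were higher in lymphoid or dendritic cells than in macrophages. Lamc1 stood at 113 (107 to 119) and 129 (121 to 138) CPM in T-like cells, with 1490 and 900 UMIs. Its highest immune cluster was the one led by Ikzf2, Ctla4, Il2ra and Foxp3, genes of regulatory T cells, at 242 (224 to 261) and 231 (212 to 251), above the larger non-immune cluster at 187 and 173. Among the 1490 WT UMIs of T-like cells, the 5 richest cells held 4.77%. Lamb3, a laminin chain of epithelial junctions, was at 67.4 and 57.2 CPM in NK-like and 38.0 and 23.4 in T-like cells, against 1.87 and 1.30 in macrophages and 2.77 and 0.737 in non-immune cells. The Lamb3 gene body overlaps G0s2 and Hsd11b1 on the opposite strand and other annotated genes on its own, so its counts are uncertain. In the neutrophil-like cluster, which G0s2 helps to lead, Lamb3 was at 98.7 and 71.5 CPM on 3 and 28 UMIs. Col27a1 was at 47.6 and 56.4 CPM in the dendritic-like cluster led by Ccl22, Ccr7 and Fscn1 and at 64.1 and 64.2 in osteoclast-like cells, against 20.3 and 16.9 in the larger non-immune cluster. Its macrophage level was 0.766 and 1.54.

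The genes are read in bulk over cells of 1 library per genotype, so a difference in RNA per cell, in the kinds of cell within a cluster and between animals cannot be told apart.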

How the data were processed

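The values are raw UMI counts per gene and barcode in 1 sparse matrix per library, as deposited, made with Cell Ranger 8.0.1 per the file headers. Genome build mm10 and Seurat 3 come from the submitters' processing notes. Cells were caught on a microwell chip, per the labels' protocols. Barcodes with at least 500 UMIs, 200 genes and at most 25% mitochondrial UMIs were kept. The automatic threshold of Scrublet marked 0% and 0.0181%, so the 5% of barcodes with the highest doublet scores were left out (440 and 276). One clustering held both libraries, with no batch correction and without the 65 genes (scanpy 1.11.5; 2000 variable genes, 30 principal components, 15 neighbours, Leiden resolution 1), giving 26 clusters. A cluster was named X-like after its best-scoring class (mean relative marker level of at least 0.2, 3 markers in 10% of cells). It stayed unnamed where its 10 leading genes held more markers of some other class, where its depth was under the library median divided by 3 with no marker leading, or where its doublet score was 2 times the mean. The clusters led by Ear2 and Dcstamp and by mitochondrial genes stayed unnamed and out of the macrophages.

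Counts were summed per library and group, as CPM, and ratios are log2 of CPM plus 5 for genes with at least 20 UMIs. Intervals are exact Poisson, Clopper-Pearson or conditional, and the ratio code was tested on simulated data. Genes with at least 100 UMIs in non-immune cells or macrophages were named, 34 of 65, with the 3 highest and 3 lowest of each pathway list among those with at least 50, and others only where singled out after their values were seen. All members and lists were chosen with earlier results of these data known, and the rule for naming clusters, the split into clusters, the motifs and the windows shown were chosen after values were seen. The values of 1 gene are not reported here and not drawn, but it is kept in the counts and medians. Coordinates are from GENCODE M21, which holds all 65 genes.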

Additional observations from a re-analysis of the deposited data

Results flagged for a closer look

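Col4a1 lay on opposite sides of 0 in the macrophage or monocyte-like cells (log2 ratio 0.27) and in the larger non-immune cluster (-0.51), a gap of 0.78 between 2 cell groups under the same comparison. The macrophage level lies under the 5 CPM added before each ratio, which draws that ratio towards 0 more than the other, so the gap joins unlike scales. The difference was not tested, since there is 1 library per genotype. The macrophage value rests on 94 and 136 UMIs, and Col4a1 was higher in the library labelled KO in 6 of 9 macrophage clusters.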

How the results depend on the processing

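The share of non-immune cells in the library labelled KO over WT (1.16) moved by less than its counting interval under all 8 alternatives run for it (1.07 to 1.18). The ratio of the set's share of non-immune UMIs (0.948) was 0.997 with a stricter cell filter, 0.969 with 10% of doublet scores left out, 1.06 with cells chosen one by one from marker UMIs, 0.884 without the 5% of cells richest in the set, 0.926 after thinning, 0.993 scaled without mitochondrial and the 50 most abundant genes, and 0.855 in the larger cluster alone. The median log2 ratio in non-immune cells was -0.21 without the richest 5% of cells. The 4 genes at least 2-fold higher became 0 without the richest cells, 1 after thinning, 2 at 200 UMIs per gene and 0 in the larger cluster alone. The 1 lower gene, Mgp (-2.26), lost that call without the richest cells (-0.76), where 4 other genes were lower, and with cells chosen one by one (-0.83), where 1 other was. The count was 2, Mgp among them, after thinning, under the other scaling, with a pseudocount of 1 and in the larger cluster alone. Tnc reversed to -0.82 with cells chosen one by one, -1.87 without the richest cells and -0.23 in the larger cluster alone, and without the richest cells Postn reversed to -0.62 and Col12a1 to -0.68. The larger cluster alone leaves out the smaller one by construction, and for the other settings the cause was not tested. Among other single genes, Col3a1 ran from -0.20 to 0.20, Col1a1 from -0.20 to 0.63 and Col4a1 from -0.63 to 0.25. Dcn (-0.67) ran from -0.68 to -0.16 and Bgn (-0.23) from -0.40 to -0.06. Both came nearest to 0 with cells chosen one by one, where the Bgn interval spanned 0.

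In macrophages the ratio of the set's share (1.51) was 1.49 without doublet removal, at resolution 0.5 and under the other scaling, 1.53 with each library clustered alone, 1.48 with cells chosen one by one, 1.61 without the richest 5% of cells, 1.57 after thinning and 1.35 with clusters weighted alike. The median (0.05) was 0.25 with cells chosen one by one, 0.34 after thinning and 0.20 at 200 UMIs per gene. Col14a1 (1.66) was 2.06 with a pseudocount of 1, 0.98 with 20 and 1.39 with clusters weighted alike, and stayed within its counting interval under the other 14. No paired analysis was possible because each group has 1 library. Larger-cluster and equal-weight settings were added after the data were seen. A gene without UMIs in the smaller cluster may have been missed at its 40644 WT UMIs.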
